A study of Mus musculus with 60 samples.

Results

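The genes of the ATP-dependent chromatin remodelling complexes were followed in the heart, the gastrocnemius (here called muscle) and the neocortex of male B6C3F1 mice, the F1 hybrids of C57BL/6 and C3H/He. Membership was set by name: every probe set whose gene symbol starts with Smarc, with Arid and a digit, with Ino80 or with Actl6, or is Chd1 to Chd9. These were 93 of the 45101 probe sets of the Affymetrix Mouse Genome 430 2.0 array, and they measure 39 of 18193 genes. Old mice, 30 months of age, had been fed a CR diet (caloric restriction, given in the sample labels as 40%), a diet with resveratrol (4.9 mg per kg per day, a plant polyphenol) or the control diet, and young mice, 5 months of age, had the control diet. The energy intakes in the study's methods amount to a smaller cut than this label, relative to the control diet. The CR and resveratrol diets began at 14 months. Each of the 3 tissues had 5 arrays in each of the 4 groups, 60 arrays in all. The values are linear signals in arbitrary units, and a difference is a log2 difference between group means, fitted with limma over all 27022 probe sets tested in a tissue. A probe set is said to have risen or fallen where its Benjamini-Hochberg adjusted p was under 0.05.

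Remodelling enzymes spend ATP to slide, evict or exchange nucleosomes, and so set how accessible DNA is to transcription factors. In the SWI/SNF (BAF) complex an ATPase, Smarca4 or Smarca2, works with core subunits (Smarcb1, Smarcc1, Smarcc2, Smarce1), a Smarcd subunit, an actin-related Actl6 subunit and an ARID subunit that binds DNA. ISWI enzymes (Smarca1, Smarca5) space nucleosomes, CHD proteins carry chromodomains that read histones, with Chd3, Chd4 and Chd5 serving in the NuRD deacetylase complex, and INO80 exchanges histone variants. Neurons are known to replace Actl6a by Actl6b in their BAF complex as they leave the cell cycle, and Smarcd3 is known for its part in heart and skeletal muscle development.

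The members comprise 4 probe sets of the 2 SWI/SNF ATPases, 28 of 12 SWI/SNF subunits, 5 of 2 ISWI ATPases, 22 of 9 CHD genes, 11 of 6 Ino80 symbols (1 of them, Ino80dos, a transcript of the opposite strand), 5 of the related enzymes Smarcad1 and Smarcal1, and 18 of 6 other ARID genes. In all, 27 genes have 2 or more probe sets, up to 6, and these can report different stretches or forms of a transcript, so each was kept apart. The test covered 77 of the 93 probe sets in neocortex, 70 in muscle and 72 in heart. Of them 63 were tested in all 3 tissues and 19 in some, and 11 fell below the signal cutoff everywhere. Levels were compared between groups and tissues for the same probe set, never between probe sets.

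The promoters of 5 members on which the diet comparisons turn are shown with the GC box (GGGCGG, or CCGCCC on the other strand), the site of Sp1-family factors, in capitals. Each is the window of 250 bases before to 50 bases after a transcription start in RefSeq (GRCm38.p6), written 5′ to 3′ on the strand of the gene. Smarcc2 (chr10:128458986-128459285, plus strand) and Smarcd1 (chr15:99702037-99702336, plus strand) fell in heart and neocortex under both diets. Chd4 (chr6:125095731-125096030, plus strand, the first of 2 starts listed) fell in heart under both diets and in neocortex under CR, on 1 of its 3 probe sets. Actl6b (chr5:137553296-137553595, plus strand) fell in neocortex, and Smarcd2 (chr11:106267583-106267882, minus strand) rose in muscle and neocortex. The Smarcd2 window, the only one listed for it, is that of a start inside the gene. It is not at the 5′ end of the gene's span (chr11:106263171-106272998).
Smarcc2: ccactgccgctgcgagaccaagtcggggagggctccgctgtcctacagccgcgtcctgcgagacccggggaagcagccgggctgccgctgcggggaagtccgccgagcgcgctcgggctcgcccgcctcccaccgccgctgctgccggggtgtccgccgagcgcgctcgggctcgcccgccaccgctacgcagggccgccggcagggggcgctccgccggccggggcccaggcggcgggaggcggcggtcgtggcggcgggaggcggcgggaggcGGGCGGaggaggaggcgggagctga
Smarcd1: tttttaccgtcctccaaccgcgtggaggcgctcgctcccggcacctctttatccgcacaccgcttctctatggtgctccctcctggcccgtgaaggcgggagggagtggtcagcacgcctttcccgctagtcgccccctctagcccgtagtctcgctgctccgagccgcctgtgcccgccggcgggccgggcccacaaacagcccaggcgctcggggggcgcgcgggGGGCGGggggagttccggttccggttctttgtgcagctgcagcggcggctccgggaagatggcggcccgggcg
Chd4: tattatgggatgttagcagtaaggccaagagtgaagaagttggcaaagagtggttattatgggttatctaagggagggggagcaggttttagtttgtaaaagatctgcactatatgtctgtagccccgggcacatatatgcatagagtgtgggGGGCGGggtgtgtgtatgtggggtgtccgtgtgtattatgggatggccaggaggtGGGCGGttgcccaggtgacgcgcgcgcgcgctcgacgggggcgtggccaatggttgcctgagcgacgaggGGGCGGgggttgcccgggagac
Actl6b: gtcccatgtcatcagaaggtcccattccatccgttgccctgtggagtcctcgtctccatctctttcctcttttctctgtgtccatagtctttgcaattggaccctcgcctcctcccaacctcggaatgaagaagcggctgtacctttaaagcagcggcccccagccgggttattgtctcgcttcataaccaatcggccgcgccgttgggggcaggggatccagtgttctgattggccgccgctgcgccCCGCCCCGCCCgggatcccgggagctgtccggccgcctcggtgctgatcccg
Smarcd2: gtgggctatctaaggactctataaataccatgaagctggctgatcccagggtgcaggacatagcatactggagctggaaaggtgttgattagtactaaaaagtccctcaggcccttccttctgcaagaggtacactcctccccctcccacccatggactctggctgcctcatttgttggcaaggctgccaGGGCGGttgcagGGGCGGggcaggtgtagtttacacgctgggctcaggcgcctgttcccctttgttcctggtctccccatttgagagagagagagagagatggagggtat
Counted on both strands, with overlaps allowed, the windows hold 1 GC box in Smarcc2, 1 in Smarcd1, 3 in Chd4, 2 in Actl6b and 2 in Smarcd2. The GC box was present in 29 of the 37 windows found for 29 member genes (78.4%), and in 35.7% of all 32851 windows of the same length. The CCAAT box (CCAAT, or ATTGG) was present in 13 member windows (35.1%), and in 37.4% of all windows. The member windows were also richer in G and C, with a median of 64.7% against 52.7% over all windows. A match is a description of the letters in the window, not a bound site.

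Every array had been scaled by the authors to the same trimmed mean. The defining markers of each tissue fitted its label, with a summed signal of 336005 to 557478 for 6 heart markers in heart, 254236 to 515465 for 7 skeletal muscle markers in muscle and 75875 to 98706 for 7 neuron markers in neocortex. In muscle, the 12 spiked-in poly-A controls, a measure of labelling, were far brighter on the diet arrays (9.92 ± 0.52 log2 under CR and 10.03 ± 0.17 under resveratrol) than on the old control (6.78 ± 0.29) and young control arrays (7.41 ± 0.57; SD, n = 5 each). The beta-actin ratio, the log2 signal at the 3′ end minus that at the 5′ end and a sign of RNA quality, was higher in old control hearts (1.39 ± 0.16) than in young control hearts (0.719 ± 0.10). No labelling or scanning batch was given in the sources used here.

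**Figure D1:**
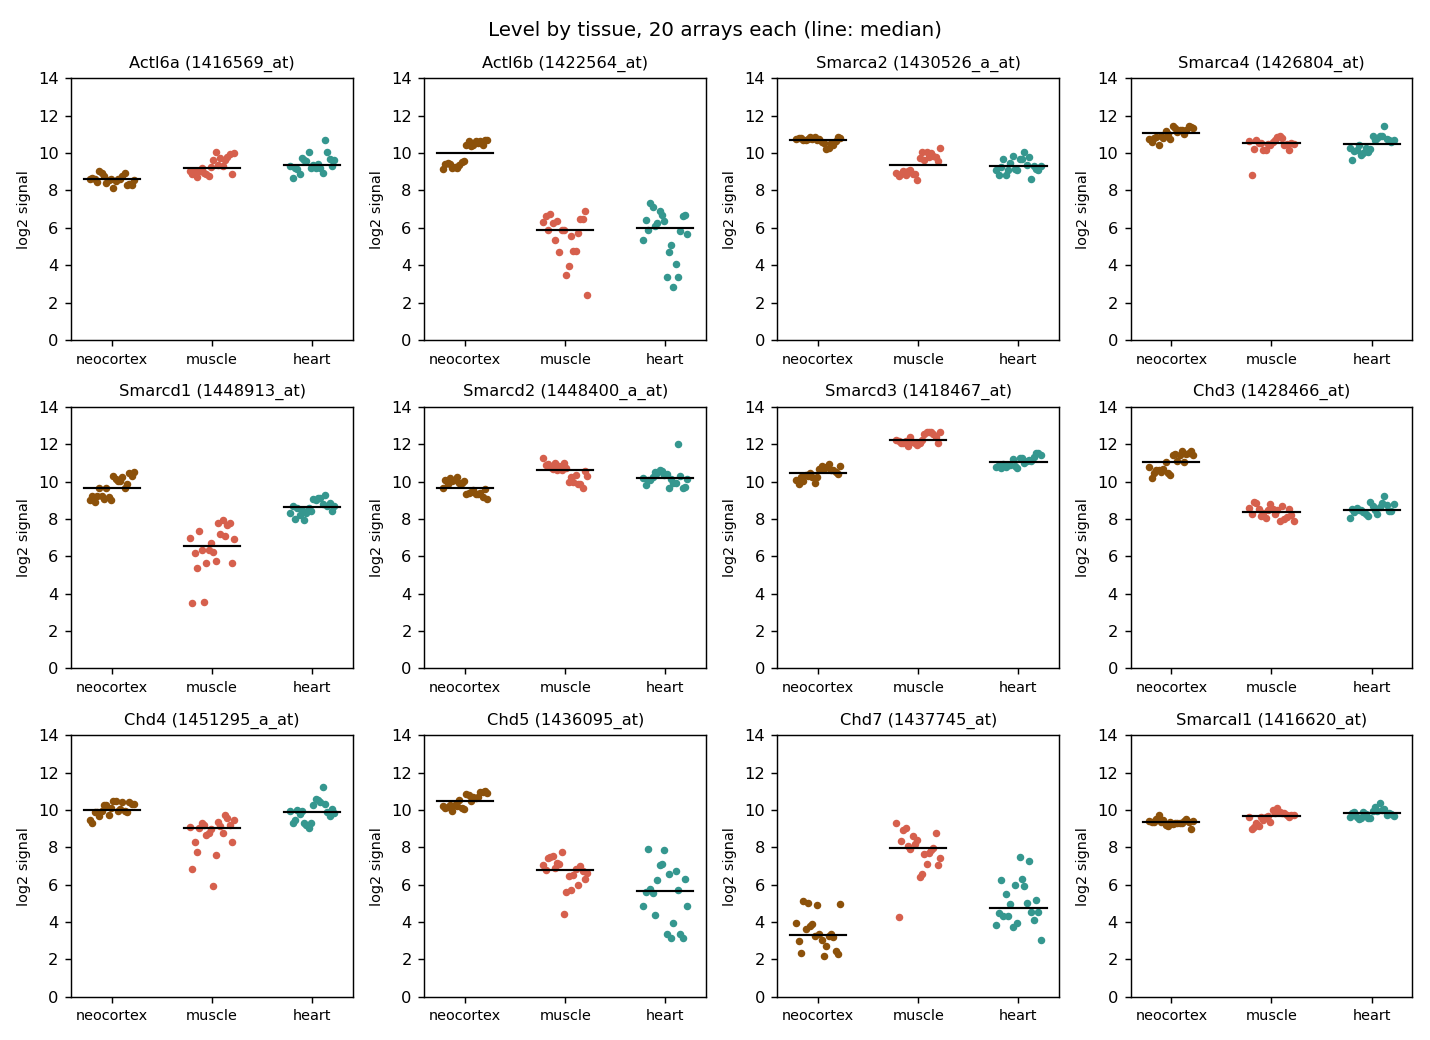
log2 signal of 12 member probe sets in neocortex, muscle and heart. Points are the 20 arrays of a tissue, running from left to right through CR, resveratrol, old control and young control, and the line is the median. Actl6b and Chd5 lie far higher in neocortex than in muscle or heart, Smarcd3 is highest in muscle, and Smarcd1 and Chd4 are lowest there.

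The neuronal members were far higher in neocortex than in the other tissues. Actl6b, the neuronal actin-related subunit, had signals of 558 to 1668 (median 1052) in neocortex, against 5.29 to 119 (median 59.7) in muscle and 7.08 to 159.8 (median 63.7) in heart. No array of neocortex overlapped with either other tissue, and the log2 difference was 4.43 (SE 0.25, adjusted p = 1.15e-23) against muscle and 4.33 (SE 0.25, adjusted p = 3.66e-23) against heart. Chd5, the CHD protein of neurons, had signals of 979 to 2105 (median 1456) in neocortex, against 21.9 to 217 (median 112) in muscle and 8.96 to 244 (median 51.4) in heart. Its log2 difference was 3.82 (SE 0.28, adjusted p = 9.02e-19) against muscle and 5.02 (SE 0.28, adjusted p = 5.83e-24) against heart. Actl6b in both other tissues and Chd5 in heart lay below the signal cutoff for testing there, so these sizes are uncertain. Chd3, its NuRD relative, was higher in neocortex by 2.62 and 2.46 on the log2 scale against muscle and heart. Both Smarca2 probe sets, of 1 of the SWI/SNF ATPases, were also higher there, by 1.29 and 1.46 against muscle and by 1.35 and 1.23 against heart. The ISWI ATPase Smarca1 stood 1.63 and 2.91 higher in neocortex. Actl6a, the counterpart of Actl6b in dividing cells, had 3 probe sets tested, and 2 of them were lower by at least 1 in neocortex than in muscle (-1.42 and -1.09).

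Muscle differed from heart in the subunits Smarcd3 and Smarcd1 and in probe sets of Chd4 and Chd7. Smarcd3 had signals of 3907 to 6535 (median 4735) in muscle and 1674 to 2926 (median 2125) in heart, and muscle was higher than heart by 1.22 (SE 0.06, adjusted p = 1.54e-27). Neocortex had 936 to 1984 (median 1397), a log2 difference from muscle of -1.85. Smarcd1 ran the other way, with 11.1 to 247 (median 93.2) in muscle and 243 to 619 (median 394) in heart, a log2 difference of -2.22 (SE 0.22, adjusted p = 1.02e-13). The 3 Chd4 probe sets tested, of the main ATPase of NuRD, were all lower in muscle than in heart, at -2.01, -2.00 and -1.25. The first 2 of them lay below the signal cutoff in muscle, so their sizes are uncertain. Chd7, a CHD enzyme known for its part in neural crest development, was higher in muscle than in heart on 1 probe set (1437745_at, 2.74) and lower in neocortex than in muscle on both (-4.30 and -1.30). Probe set 1437745_at lay below the cutoff in neocortex and heart, so its sizes are uncertain too. Smarca4 on either probe set and Smarcc2 did not reach a log2 difference of 1 between any pair of tissues.

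Of the 82 members tested in at least 1 tissue, with a call set at an adjusted p under 0.05 and a log2 difference of at least 1, neocortex was higher than heart in 15 and lower in 3. The shares over all 33036 probe sets were 24.3% higher and 24.2% lower. Neocortex was higher than muscle in 20 members and lower in 15 (24.9% and 28.5% of all probe sets), and muscle was higher than heart in 13 and lower in 5 (15.6% and 14%). Arrays of different tissues were treated as independent. In such bulk samples fewer cells of a type and less RNA per cell cannot be told apart.

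In the neocortex of old mice, most of the SWI/SNF subunits that passed the test fell under both diets. Under CR 2 members rose and 15 fell of 77 tested (2.6% and 19.5%), against 11.7% and 14.6% of all probe sets. Under resveratrol 8 rose and 12 fell (10.4% and 15.6%), against 11% and 13.1% of all probe sets. Of the 24 SWI/SNF subunit probe sets tested, 1 rose and 9 fell under CR, and 2 rose and 7 fell under resveratrol. The median log2 difference of the members was -0.09 under CR and -0.01 under resveratrol, and that of all probe sets was -0.02 and -0.01. Both diets are read against the same 5 old control arrays, so their values stand side by side and are not independent.

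**Figure D2:**
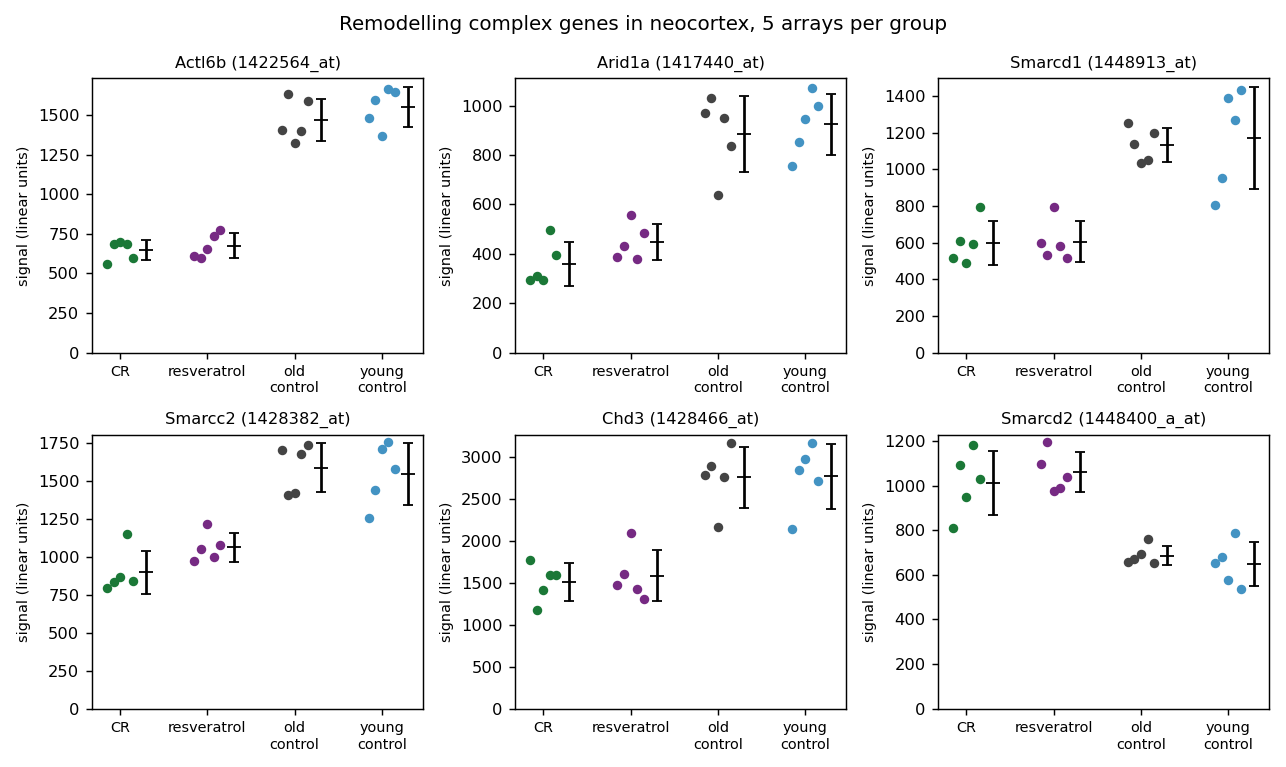
Signals (linear units) of 6 members in the neocortex of CR, resveratrol, old control and young control mice. Points are arrays and the bars to the right of them are the mean ± SD of 5 arrays. For Actl6b, Arid1a, Smarcd1, Smarcc2 and Chd3 every diet array lies below every old control array, and for Smarcd2 every diet array lies above.

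Actl6b, the neuronal subunit, had the smallest adjusted p of the members in neocortex. Its signals were 558, 684, 697, 689 and 600.4 on the CR arrays and 611, 596, 656, 734 and 776 on the resveratrol arrays, against 1406, 1635, 1327, 1402 and 1587 on the old control arrays. Every array of both diets lay far below every old control, and the log2 differences were -1.19 (SE 0.09, adjusted p = 1.98e-08) for CR and -1.13 (SE 0.09, adjusted p = 5.55e-08) for resveratrol. Arid1a, the DNA-binding ARID subunit of the BAF complex, had signals of 292, 310.1, 294, 497 and 393 under CR and 387, 431, 557, 379.9 and 486 under resveratrol, against 971, 1033, 639, 949.9 and 837 in old controls (1417440_at). All diet arrays were below all old controls, and it fell by 1.32 under CR and by 0.98 under resveratrol on the log2 scale (adjusted p = 2.02e-06 and 6.37e-05). Its other probe set, 1448709_at, fell by 0.25 under CR and differed by -0.08 under resveratrol (adjusted p = 0.498).

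The Smarcd subunits moved in opposite directions. Smarcd1 had signals of 514, 609, 488, 592 and 797 under CR and 598, 532, 797, 583 and 515 under resveratrol, against 1253, 1137, 1033, 1054 and 1199 in old controls. It fell without overlap by 0.94 and 0.92 (adjusted p = 8.45e-05 and 0.000112). Smarcd2 had 809, 1091, 947, 1180.3 and 1029 under CR and 1097, 1196, 978, 988 and 1038 under resveratrol, against 657, 672, 693, 759 and 652 in old controls (1448400_a_at). Every diet array was higher than every old control, with log2 differences of 0.55 (SE 0.11, adjusted p = 0.00051) and 0.62 (SE 0.11, adjusted p = 0.000156). The other 2 Smarcd2 probe sets did not pass the test in neocortex under either diet. Smarcd3 fell by 0.67 under CR and 0.56 under resveratrol (adjusted p = 4.14e-05 and 0.000318).

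Among the core subunits, Smarcc2 had signals of 795, 835, 870.1, 1150.4 and 843 under CR and 976, 1050.0, 1218, 997 and 1078 under resveratrol, against 1703, 1407, 1422, 1676 and 1734 in old controls. It fell without overlap, by 0.83 under CR and 0.58 under resveratrol (adjusted p = 6.73e-06 and 0.000353). Its paralog Smarcc1 was less clear: 2 of its 3 probe sets tested fell under CR (-0.39 and -0.43) and the third under resveratrol (-0.50, adjusted p = 0.0381). Smarcb1 was called both ways under resveratrol: 1416045_a_at fell by 0.24 and 1435856_x_at, which may match several transcripts, rose by 0.58.

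The 2 SWI/SNF ATPases parted. Smarca4 (1426804_at) fell by 0.57 under CR and 0.33 under resveratrol (adjusted p = 0.000122 and 0.0125), and 1426805_at by 0.44 under resveratrol. Smarca2 (1430526_a_at) had signals of 1718, 1789, 1816, 1661 and 1647 under CR and 1753, 1866, 1755, 1875 and 1693 under resveratrol, against 1703, 1554, 1500.2, 1209 and 1260.3 in old controls. The highest old control lay among the diet arrays and the other 4 below them, and the rises were small, at 0.27 (SE 0.09, adjusted p = 0.0338) and 0.32 (SE 0.09, adjusted p = 0.0134). The second Smarca2 probe set did not pass the test for either diet (0.32 and -0.20).

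Of the NuRD-type CHD genes, Chd3 and Chd5 fell under both diets, and Chd4 under CR only and on 1 probe set. Chd3 had signals of 1774, 1171, 1411, 1597 and 1588 under CR and 1473, 1607, 2089, 1429.8 and 1304 under resveratrol, against 2778, 2891, 2166, 2762 and 3162 in old controls. The groups did not overlap, and Chd3 fell by 0.87 and 0.81 on the log2 scale (adjusted p = 3.30e-05 and 8.09e-05). Chd5 fell by 0.56 and 0.47, and Chd4 (1451295_a_at) by 0.62 under CR, with -0.21 under resveratrol (adjusted p = 0.309). Chd6, a CHD enzyme of another subfamily, rose by 0.40 under resveratrol, and Chd1 by 0.36 on 1 of its 4 probe sets (1457473_at). Arid3b (1423526_at), an ARID factor outside the BAF complex, fell by 1.19 under resveratrol. Its resveratrol signals were 56.6, 55.9, 82.4, 56.8 and 15.9, near the cutoff of 57.3 for testing, so the size is uncertain. The highest of them overlapped the lowest old control, at 65.7.

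The striatum lies under the neocortex, and its markers varied between these pieces of tissue. All 5 striatal markers on the array fell under CR and 1 of 5 under resveratrol, and their summed signal was 3378 to 14593 on CR arrays and 3917 to 14483 on resveratrol arrays, against 13245 to 18913 on old control arrays. With the mean log2 signal of these markers on each array as a covariate, 3 members rose and 10 fell under CR, and 5 rose and 9 fell under resveratrol. The share of all probe sets called in this fit was not counted, so these counts are not read as a trait of the members. The falls were then 1.24 and 1.16 for Actl6b, 1.40 and 1.03 for Arid1a (1417440_at), 1.02 and 0.97 for Smarcd1, 0.94 and 0.65 for Smarcc2, and 0.96 and 0.86 for Chd3 on the log2 scale, each past the threshold. The rise of Smarca2 under CR did not pass (0.23, adjusted p = 0.176), nor did the 3 Smarcc1 falls, the Smarca4 1426805_at, Smarcb1, Smarca5 1424206_at and Chd1 calls under resveratrol. This covariate was chosen after seeing the data. Of 7 neuron markers, 1 rose and 1 fell under CR, and 1 rose and 3 fell under resveratrol. Of 5 astrocyte markers 1 rose and 2 fell under CR, and 2 rose and 1 fell under resveratrol, and of 5 macrophage and microglia markers 0 were called under CR and 3 rose under resveratrol. The poly-A controls were 9.46 to 10.04 log2 on resveratrol arrays, which did not overlap the 8.49 to 9.25 of the old controls, while CR arrays, at 8.48 to 9.58, did. The beta-actin ratio was 0.708 ± 0.045 under CR and 0.887 ± 0.094 under resveratrol, against 0.546 ± 0.064 in old controls (SD, n = 5 each). Neither diet overlapped the old controls in this ratio. The part of these measures in the results was not tested. With each array left out in turn, 11 of 17 calls held every time for CR and 12 of 20 for resveratrol. The rise of Smarca2 under CR was lost with 4 single arrays left out, and the Smarcc1 calls with 6, 7 or 8. The fall of Arid3b was lost without old control replicate 4 (adjusted p = 0.0525) or resveratrol replicate 5 (adjusted p = 0.0799), that of Arid1a 1448709_at without old control replicate 2, and the calls of Smarca4 1426805_at, Smarca5 1424206_at and Smarcb1 with 4 or 6 arrays each.

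The diets also differed from each other in neocortex. In resveratrol against CR mice 7 members were higher and 1 was lower (9.1% and 1.3%), against 4.41% and 3.65% of all probe sets. Smarca5, the main ISWI ATPase, had signals of 899.7, 1126, 976, 1059.8 and 1021 under resveratrol and 653, 775, 669.5, 633 and 757 under CR (1424205_at). No array overlapped, and the log2 difference of resveratrol minus CR was 0.54 (SE 0.09, adjusted p = 0.00204). Against the old controls, at 801, 775, 749, 737 and 630.3, this probe set rose by 0.46 under resveratrol and differed by -0.08 under CR (adjusted p = 0.547). Of the other Smarca5 probe sets, 1424206_at rose by 0.28 under resveratrol and 1424207_at did not pass the test. Ino80d, a subunit of INO80, was higher under resveratrol than under CR by 0.48, Arid1b by 0.51 and Arid4a by 0.45, while Smarca2 (1452333_at) was lower by 0.52. Leaving out CR replicate 2 or resveratrol replicate 2 left 3 of these 8 calls, and leaving out CR replicate 1, resveratrol replicate 3 or resveratrol replicate 5 left 5. Only 3 of the 8 held with every array left out, and 2 in every alternative. The poly-A controls were 9.81 ± 0.23 log2 under resveratrol and 9.14 ± 0.47 under CR. The beta-actin ratio was 0.887 ± 0.094 and 0.708 ± 0.045 (SD, n = 5 each). Their part was not tested.

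**Figure D3:**
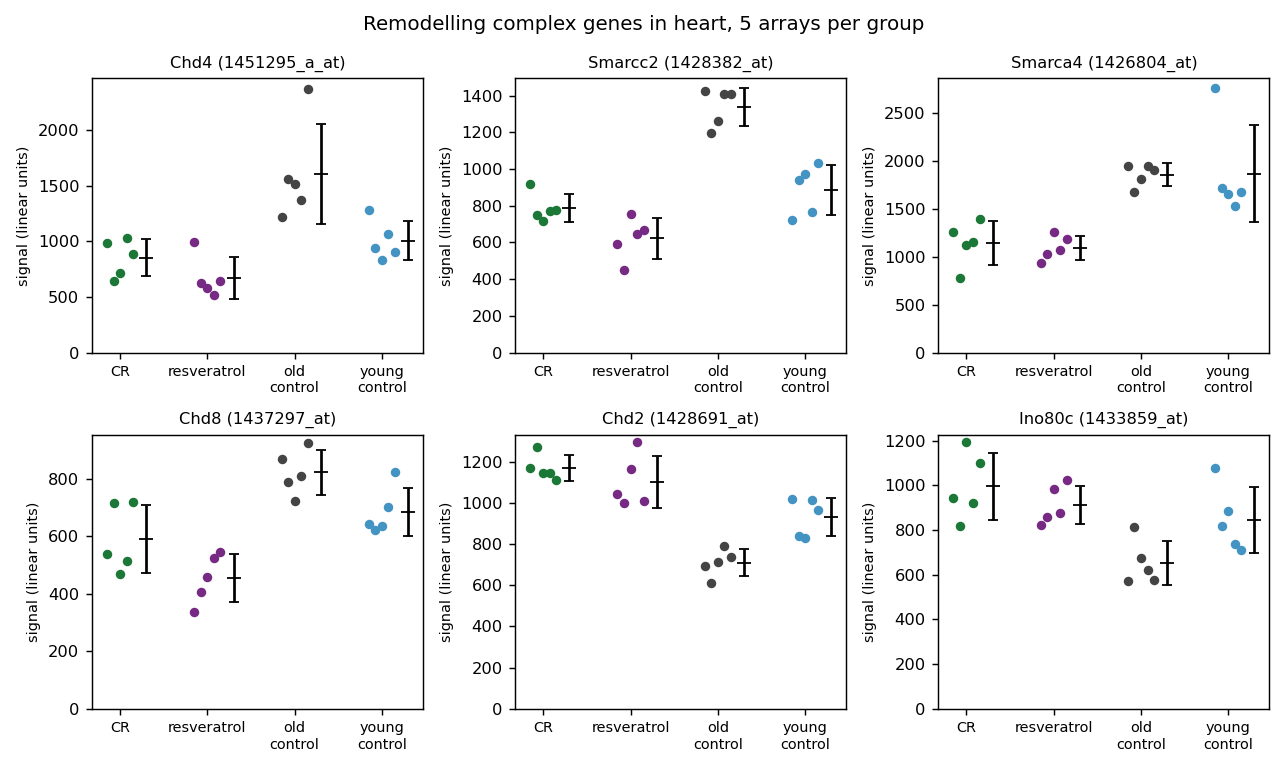
Signals (linear units) of 6 members in the heart of CR, resveratrol, old control and young control mice. Points are arrays and the bars to the right of them are the mean ± SD of 5 arrays. Chd4, Smarcc2, Smarca4 and Chd8 are lower on every diet array than on every old control array, and Chd2 and Ino80c are higher.

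In the old heart, Chd4 (1451295_a_at), Smarcc2, Smarca4 (1426804_at) and 1 of the 2 Arid1a probe sets fell and Chd2 (1428691_at) and Ino80c rose under both diets. Under CR 4 members rose and 9 fell of 72 tested (5.6% and 12.5%), and 10.2% of all probe sets rose and 10.2% fell. Under resveratrol 2 rose and 8 fell (2.8% and 11.1%), and the shares of all probe sets were 7.51% and 7.64%. The median log2 difference of the members was 0.06 under CR and -0.02 under resveratrol, against 0.08 and 0.05 for all probe sets.

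Chd4 (1451295_a_at) had signals of 987, 643, 715, 1032 and 889.5 under CR and 992, 625, 578, 519 and 639 under resveratrol, against 1221, 1561, 1514, 1369.8 and 2371 in old control hearts. All diet hearts were below all old controls, of which 1 stood far above the rest, and the log2 differences were -0.90 (SE 0.18, adjusted p = 0.000926) and -1.26 (SE 0.18, adjusted p = 3.49e-05). No other Chd4 probe set passed in heart under either diet. Smarcc2 had signals of 919, 749, 719, 773 and 776 under CR and 593, 451, 753, 644 and 670.2 under resveratrol, against 1426, 1196, 1262, 1410.5 and 1407 in old controls. It was lower on every diet array, with log2 differences of -0.77 (SE 0.14, adjusted p = 0.000228) and -1.12 (SE 0.14, adjusted p = 4.94e-06). The ATPase Smarca4 (1426804_at) had 1256, 780.1, 1125, 1156 and 1398 under CR and 938, 1032, 1259, 1072 and 1181 under resveratrol, against 1944, 1678, 1813, 1951 and 1910.4 in old controls. It fell without overlap, by 0.73 and 0.77 (adjusted p = 0.00101 and 0.000851), and its other probe set, 1426805_at, differed by -0.54 under CR (adjusted p = 0.101) and fell by 0.95 under resveratrol.

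Among the other BAF subunits, Arid1a (1417440_at) fell by 0.60 under CR and 0.81 under resveratrol, and Smarcd1 by 0.66 and 0.69. The other Arid1a probe set, 1448709_at, did not pass (-0.16 under CR and -0.08 under resveratrol, adjusted p = 0.552 and 0.821). Smarcd3, the subunit known from heart development, fell by 0.33 under CR (adjusted p = 0.0236), and the ATPase Smarca2 (1430526_a_at) by 0.58 (adjusted p = 0.0282). Chd8, a CHD enzyme known as an inhibitor of beta-catenin, had signals of 538, 714, 467, 513 and 717 under CR and 338, 407, 459, 522 and 544 under resveratrol, against 867, 789.7, 721, 808 and 924 in old controls. The highest CR hearts came close to the lowest old control without overlap, and Chd8 fell by 0.50 under CR (adjusted p = 0.0253) and by 0.87 under resveratrol (adjusted p = 0.000356).

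Chd2, a CHD enzyme that deposits histone H3.3, had signals of 1170.2, 1274, 1147, 1144 and 1111 under CR and 1045, 998, 1165, 1298 and 1008 under resveratrol, against 695, 610.3, 714, 791 and 736 in old controls (1428691_at). It rose on every diet array, by 0.72 (SE 0.11, adjusted p = 4.37e-05) and 0.63 (SE 0.11, adjusted p = 0.000318). The other Chd2 probe set, 1445843_at, did not pass under either diet. Ino80c, a subunit of INO80, had 943, 819, 1195, 920.3 and 1099 under CR and 821, 859.6, 981, 876 and 1022 under resveratrol, against 573, 815, 676, 621 and 576 in old controls. The groups did not overlap, though 1 old control came near the lowest diet arrays, and Ino80c rose by 0.61 (SE 0.14, adjusted p = 0.00257) and 0.49 (SE 0.14, adjusted p = 0.017). Smarcad1 (1435651_a_at) and Arid5b (1434283_at) rose by 0.62 and 0.59 under CR. No Smarca5 or Chd1 probe set tested in heart passed the test under either diet.

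The beta-actin ratio was 0.787 ± 0.11 in CR hearts and 0.819 ± 0.12 in resveratrol hearts, against 1.39 ± 0.16 in old control hearts (SD, n = 5 each), with no overlap. Of 6 macrophage markers 4 rose under CR and 4 under resveratrol, and of 6 fibroblast markers 2 and 3 rose. Of 3 adipocyte markers 2 rose under CR and 1 under resveratrol, and the 1 red blood cell marker tested rose by 2.08 and 1.2 on the log2 scale. Their part in these differences was not tested. With each array left out in turn, 8 of 13 calls held every time for CR and 9 of 10 for resveratrol, and under CR the falls of Chd8 and Smarca2 were lost with 5 single arrays each, and the calls of Smarcd3 and Smarcad1 with 4. No member passed the test between resveratrol and CR hearts, where 2.74% of all probe sets were called (limma, smallest adjusted p 0.0861, and 11 members at an unadjusted p under 0.05), and 1 did with the eBayes trend left out, with the 2 groups alone or with 2 outlying arrays left out.

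With age, 4 members rose and 5 fell in heart (5.6% and 6.9% of 72), against 5.4% and 6.58% of all probe sets. Smarcc2 had signals of 1426, 1196, 1262, 1410.5 and 1407 in old control hearts, against 720.2, 943, 972, 764 and 1035 in young control hearts. The groups did not overlap, and it rose by 0.61 (SE 0.14, adjusted p = 0.00419). Chd4 had 1221, 1561, 1514, 1369.8 and 2371 in old controls, against 1286, 940.0, 833, 1068 and 907 in young controls, which overlap in 1 array of each group. It rose by 0.65 (SE 0.18, adjusted p = 0.0204). Chd2 (1428691_at) had 695, 610.3, 714, 791 and 736 in old controls, against 1019.8, 841, 831, 1015 and 966 in young controls. No array overlapped, and it fell by 0.40 (adjusted p = 0.0208), while its other probe set, 1445843_at, fell by 1.12. Smarca2 (1430526_a_at) and Arid1b rose by 0.63 and 0.63, and Smarcc1 (1423416_at), Actl6a (1416569_at) and Smarcad1 (1435651_a_at) fell by 0.84, 0.65 and 0.61. These values share the old control arrays, with their high beta-actin ratio, with both diet comparisons. Of 6 fibroblast markers 3 fell with age (median log2 difference -0.94) and of 6 macrophage markers 1 rose, and their part in the calls with age was not tested.

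Most calls with age were lost when a single array was left out. The call of Smarcc2 was the 1 of 9 that held whichever array was left out. Without old control replicate 5, 3 members were called, and without young control replicate 2 or 3 or old control replicate 2, 3 or 4, 5 were. Chd4 missed the threshold without young control replicate 3 (0.59, adjusted p = 0.0557) and without old control replicate 5 (0.50, adjusted p = 0.0758), and Chd2 (1428691_at) without young control replicate 4 (adjusted p = 0.0505) or old control replicate 2 (adjusted p = 0.0622). In muscle and neocortex no member passed the test with age, and 0.729% and 0.751% of all probe sets did (limma, smallest adjusted p of a member 0.124 and 0.101). At an unadjusted p under 0.05 there were 6 members in muscle and 6 in neocortex, and 1 muscle member was called without young control replicate 4.

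**Figure D4:**
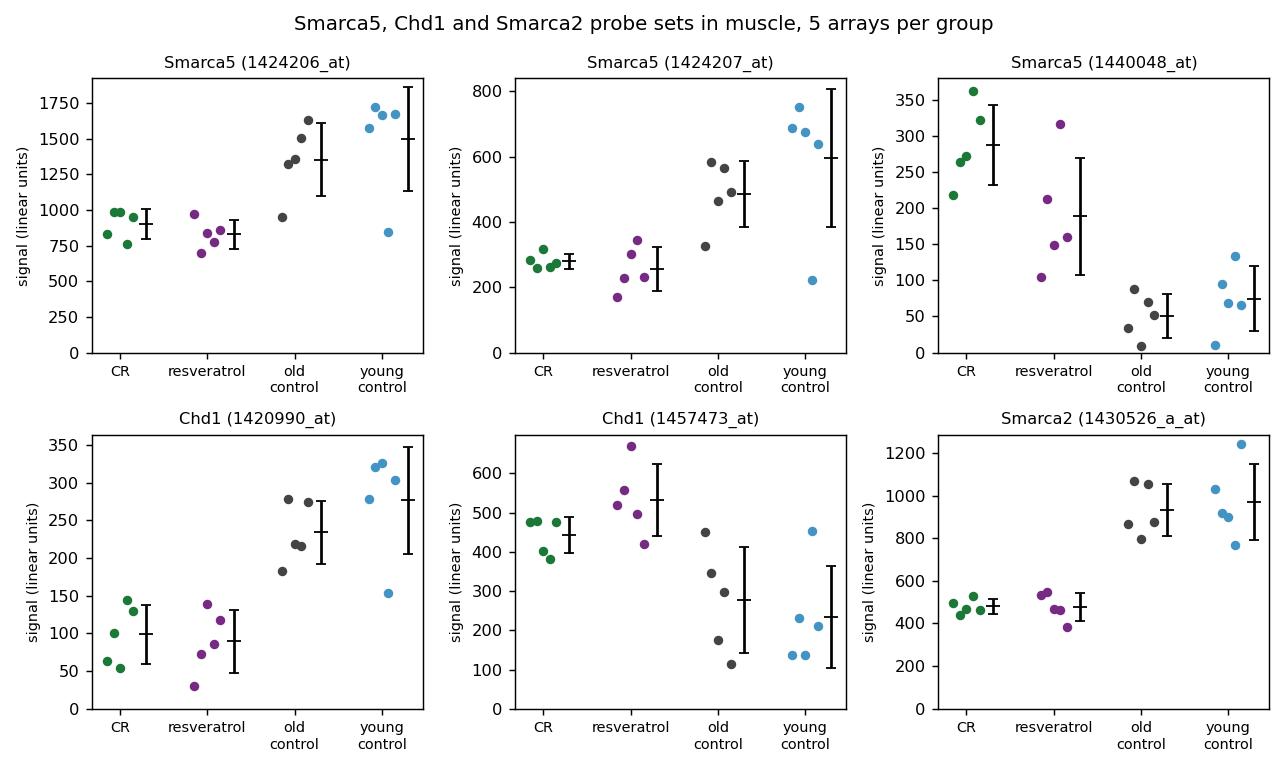
Signals (linear units) of 3 Smarca5, 2 Chd1 and 1 Smarca2 probe sets in the muscle of CR, resveratrol, old control and young control mice. Points are arrays and the bars to the right of them are the mean ± SD of 5 arrays. Smarca5 1440048_at is higher on all diet arrays while 1424206_at and 1424207_at are lower in the mean, and the 2 Chd1 probe sets differ in the same way.

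In muscle the probe sets of Smarca5 and of Chd1 moved in opposite directions under both diets. Under CR 13 members rose and 14 fell of 70 tested (18.6% and 20%), against 19.4% and 13.4% of all probe sets. Under resveratrol 9 rose and 8 fell (12.9% and 11.4%), against 10.7% and 9.73% of all probe sets. The median log2 difference was -0.05 for the members and 0.16 for all probe sets under CR, and 0.02 for the members and 0.10 for all probe sets under resveratrol, so changes here are also read against that shift. Of 23 genes with 2 or more probe sets tested, Chd1 and Smarca5 were called both up and down under each diet. The share of such genes over the whole array was not counted, so this is not read as a trait of the members.

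Smarca5 had 4 probe sets tested. Probe set 1424207_at had signals of 285, 259, 316, 261 and 274 under CR and 172, 229, 302, 346 and 231 under resveratrol, against 328, 583, 464, 564 and 492 in old controls. CR arrays were all below the old controls and the highest resveratrol array overlapped the lowest of them, with log2 differences of -0.78 (SE 0.27, adjusted p = 0.0307) and -0.94 (SE 0.27, adjusted p = 0.0161). Probe set 1424206_at had 828, 987, 982, 758 and 952 under CR and 973, 696, 840.3, 777 and 861 under resveratrol, against 948, 1319.6, 1357, 1506 and 1632 in old controls. The lowest old control lay among the diet arrays and the other 4 above them, and it fell by 0.57 and 0.69 (adjusted p = 0.0201 and 0.00959). Probe set 1424205_at fell by 0.69 under CR and differed by -0.27 under resveratrol (adjusted p = 0.226).

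Probe set 1440048_at of the same gene ran the other way. Its signals were 219, 264, 273, 362 and 322 under CR and 105, 213, 149, 317 and 160.1 under resveratrol, against 34.2, 88.7, 9.5, 69.7 and 52.5 in old controls. Every diet array was higher than every old control, with log2 differences of 2.82 (SE 0.59, adjusted p = 0.00118) and 2.13 (SE 0.59, adjusted p = 0.0134), the largest rise of any member in muscle. The old control mean, 50.9, lay under the mean signal of 69.3 below which probe sets were not tested in muscle, so the size of the rise is uncertain. In heart and neocortex this probe set was not tested because of low signal.

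Chd1, a CHD enzyme that spaces nucleosomes over transcribed genes, showed the same split. Probe set 1420990_at had 63.5, 101, 53.9, 144 and 130.1 under CR and 30.7, 72.9, 139, 86.6 and 118 under resveratrol, against 183, 279, 219, 216 and 274 in old controls. All diet arrays were lower, with log2 differences of -1.33 (SE 0.36, adjusted p = 0.00754) and -1.54 (SE 0.36, adjusted p = 0.00424). Probe set 1457473_at had 475, 478, 403, 382 and 476 under CR and 519, 557, 671, 497 and 419.6 under resveratrol, against 451, 346, 174, 298 and 114 in old controls. The highest old control reached into both diet groups, and the rise was 0.84 (SE 0.32, adjusted p = 0.0496) and 1.09 (SE 0.32, adjusted p = 0.0193). The remaining Chd1 probe sets, 1431166_at and 1450077_at, did not pass the test under either diet (0.17 and 0.46 under CR, -0.16 and 0.42 under resveratrol).

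The clearest fall in muscle was that of the ATPase Smarca2 (1430526_a_at), with signals of 498, 442, 467, 530.2 and 462 under CR and 531, 549.7, 467, 464 and 383 under resveratrol, against 869, 1069.8, 796, 1052 and 876 in old controls. No array overlapped, and the log2 differences were -0.95 (SE 0.14, adjusted p = 5.26e-05) and -0.96 (SE 0.14, adjusted p = 8.13e-05). Smarca4 did not pass the test on either probe set (-0.58 and -0.31 under CR, -0.42 and 0.06 under resveratrol), and neither did any of 3 Smarcc1 probe sets. Chd2 (1428691_at) had 879.9, 351, 765, 873 and 720.4 under CR and 943, 985, 1004, 946 and 1181 under resveratrol, against 1269.5, 1811, 1699.8, 1670.0 and 1828 in old controls. All diet arrays were below the old controls, with log2 differences of -1.27 (SE 0.19, adjusted p = 6.62e-05) and -0.70 (SE 0.19, adjusted p = 0.013). The other Chd2 probe set, 1445843_at, did not pass under either diet. Under resveratrol it lay higher in the mean, at 271, 174, 244, 196 and 308 against 196, 89.4, 122, 181 and 177 in old controls.

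Among the BAF subunits, both Arid1a probe sets fell under CR, by 1.81 (1417440_at) and 1.39 (1448709_at). CR replicate 2 stood far below the other CR arrays on both, and without it the differences were -0.89 and -0.95, still past the threshold. Actl6a (1416569_at) fell by 0.66 under CR and 0.60 under resveratrol. The other Actl6a probe sets, 1429883_at and 1456730_x_at, did not pass under either diet and lay higher in the mean than in old controls under both. Smarcd2 rose, as did 1 Smarcb1 probe set under resveratrol (1435856_x_at, 1.33). Probe set 1448400_a_at had signals of 2419, 1871, 1941, 1792 and 1631 under CR and 2038, 1573, 1815, 1587 and 2039.8 under resveratrol, against 1722, 1004, 1205, 991 and 1332 in old controls. The highest old control lay within the diet range and the other 4 below it, and the rise was 0.64 (SE 0.18, adjusted p = 0.00837) and 0.56 (SE 0.18, adjusted p = 0.0282). All 3 Smarcd2 probe sets rose under CR (1.30 and 0.52 for the other 2), and 1426192_at rose by 1.42 under resveratrol.

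Outside the BAF complex, Arid4b (1431031_at), of the SIN3 deacetylase complex, had 30.7, 87.2, 42.8, 75.2 and 4.75 under CR and 46.8, 60.3, 59.2, 83 and 53.8 under resveratrol, against 108, 242, 174, 175 and 184 in old controls. All diet arrays were lower, and the difference was -2.36 (SE 0.59, adjusted p = 0.00453) for CR and did not pass for resveratrol (-1.52, adjusted p = 0.0698). The CR mean lay under the cutoff for testing. Arid5b (1420973_at), an ARID factor known for its part in adipogenesis, rose by 1.18 and 1.2, Arid3a by 0.86 and 0.70, and Arid5a by 1.02 under CR. No other Arid5b probe set passed under either diet. Of them, 1434283_at and 1442176_at lay lower in the mean than in old controls under both diets, and 1420972_at lay higher under CR only. In the INO80 complex, Ino80d (1439180_at) rose by 1.08 and 1.10, and Ino80c fell by 0.63 under CR. Smarcal1 (1416620_at), which reanneals DNA at stalled forks, fell by 0.71 and 0.40.

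The diet and old control arrays of muscle did not overlap in the poly-A controls (9.16 to 10.6 under CR and 9.84 to 10.3 under resveratrol, against 6.4 to 7.19 log2 in old controls), and 3 of 5 endothelial markers fell under each diet and 3 of 6 fibroblast markers fell under CR. Of 5 macrophage markers 2 rose under each diet. Diet and labelling cannot be told apart in muscle. Old control replicate 1 had a Gapdh signal that was higher by 3.23 log2 at the 3′ end than at the 5′ end, outside the -0.22 to 0.54 of the other old controls and the -0.30 to -0.23 of the diet arrays. This array was the lowest old control for Smarca5 1424206_at and 1424207_at and for Chd2, and the highest for Chd1 1457473_at and Smarcd2 1448400_a_at. Without it 25 members were called for CR and 17 for resveratrol, and the calls of these 5 probe sets held under both diets. CR replicate 2 had a median correlation with other arrays of 0.894, against 0.939 to 0.944 for the other CR arrays. It was the lowest CR array for Chd2 (1428691_at), Arid1b and both Arid1a probe sets. With each array left out in turn, 16 of 27 calls held every time for CR and 6 of 17 for resveratrol, where 10 members were called without resveratrol replicate 3. Of the calls shown by array, the rise of Chd1 1457473_at was lost with 8 single arrays left out for CR (0.56 without old control replicate 5), the fall of Smarca5 1424207_at with 6 for CR, and the rise of Smarcd2 1448400_a_at with 6 for resveratrol. Chd1 1457473_at was also lost for resveratrol without old control replicate 3 or 5 or resveratrol replicate 3 (adjusted p 0.0547, 0.0632 and 0.0513), and Smarca5 1424207_at without resveratrol replicate 1 (adjusted p = 0.0507). For CR, Smarca5 1424206_at was lost without old control replicate 5 or CR replicate 4 (adjusted p 0.0554 and 0.0516), and Arid1a 1417440_at without old control replicate 3 (adjusted p = 0.0508). No member passed the test between resveratrol and CR muscles, where 0.348% of all probe sets did (limma, smallest adjusted p 0.234, and 11 members at an unadjusted p under 0.05).

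**Figure D5:**
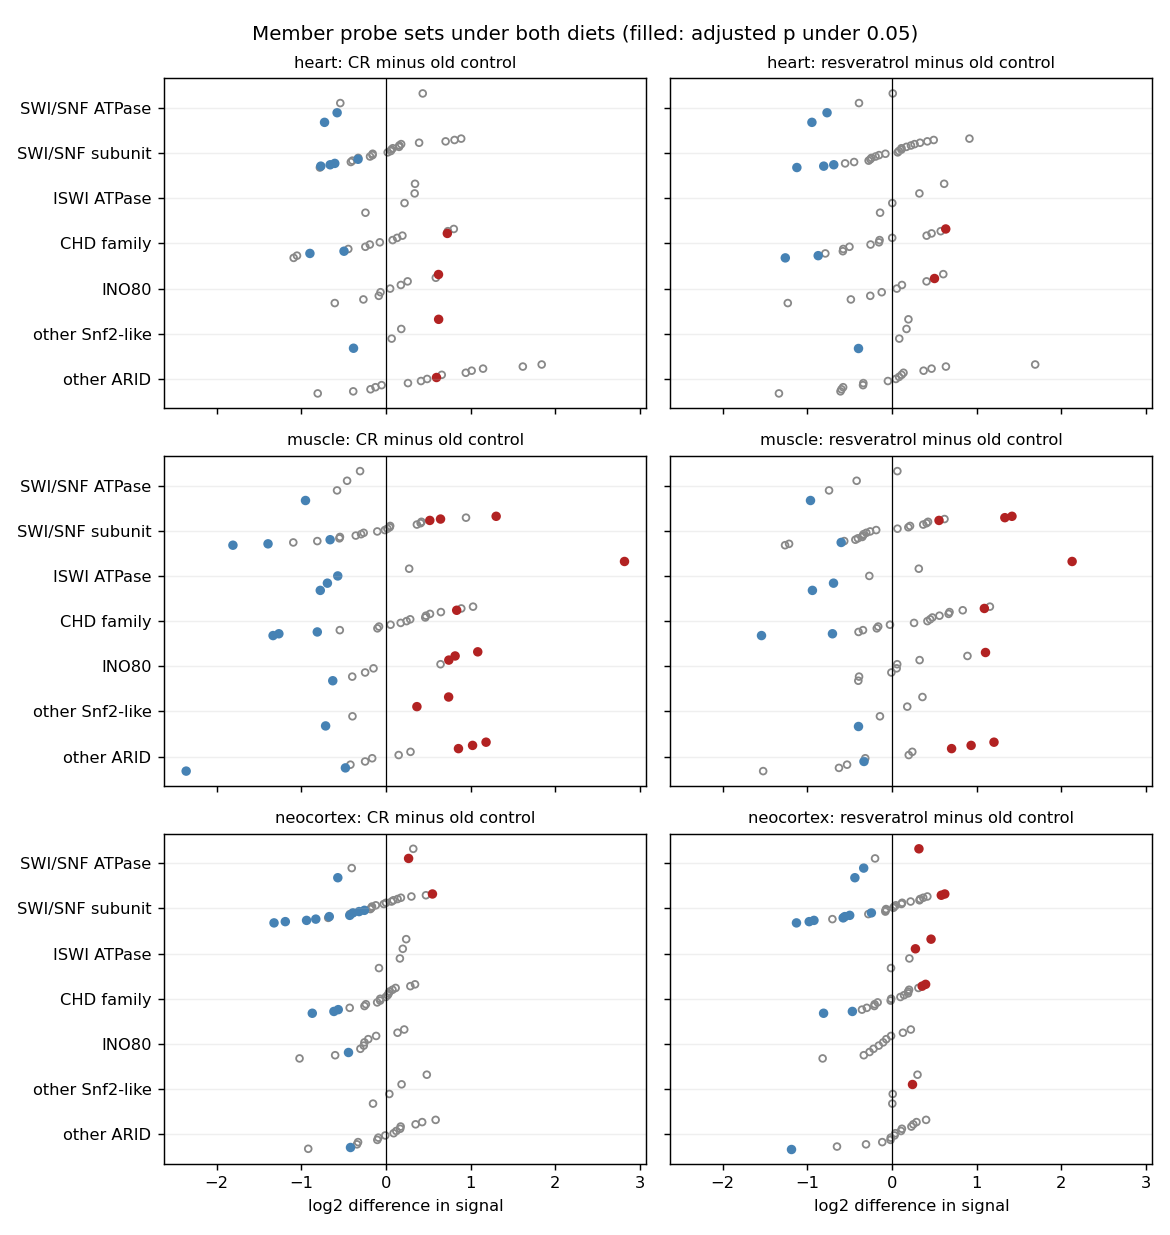
log2 difference of each member probe set tested, CR minus old control (left) and resveratrol minus old control (right), by tissue and kind of complex. Each point is a probe set, and filled points have an adjusted p under 0.05, red for rises and blue for falls. All filled SWI/SNF subunit points of heart are falls (4 under CR and 3 under resveratrol), as are 9 of 10 under CR in neocortex, and those of muscle lie on both sides.

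Differences from old control in 2 tissues were set against each other, and those with muscle carry its limit that diet and labelling cannot be told apart. In heart and in neocortex the beta-actin ratio of neither diet overlapped that of the old controls, and its part was not tested. The difference between 2 tissues in the effect of a diet was tested for 63 members in 1 model of all 60 arrays. The CR effect differed between muscle and heart in 13 of them, between neocortex and heart in 5 and between neocortex and muscle in 18, against 28.9%, 11.5% and 23.2% of all 21448 probe sets. For resveratrol the counts were 15, 3 and 12, against 24.5%, 8.02% and 14.9%. As shares of the 63 members, the counts were 20.6%, 7.9% and 28.6% for CR and 23.8%, 4.8% and 19.0% for resveratrol.

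Chd2 (1428691_at) fell in muscle and rose in heart under both diets. The effect in muscle minus that in heart was -1.99 (SE 0.19, adjusted p = 4.04e-12) for CR and -1.34 (SE 0.19, adjusted p = 2.53e-07) for resveratrol. The other Chd2 probe set, 1445843_at, did not pass under either diet in either tissue. Ino80c fell in muscle and rose in heart under CR, with a difference of -1.24 (SE 0.20, adjusted p = 1.72e-06). Smarca2 (1430526_a_at) rose in neocortex and fell in muscle under both diets, with a difference of 1.22 (SE 0.20, adjusted p = 7.83e-06) for CR and 1.28 (SE 0.20, adjusted p = 6.84e-06) for resveratrol. In heart it fell under CR by 0.58, and the neocortex effect minus the heart effect was 0.84 (SE 0.20, adjusted p = 0.00374). Smarca5 (1424206_at) rose in neocortex and fell in muscle under resveratrol, with a difference of 0.97 (SE 0.20, adjusted p = 0.000455). This neocortex rise, and that of Smarca2 under CR, did not pass with the striatal markers as a covariate. The second Smarca2 probe set did not pass in neocortex under either diet.

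The partners of these complexes that the names do not catch were read from a list of 59 genes, of which 58 were on the array with 157 probe sets. They include accessory BAF and PBAF subunits, NuRD subunits and the SRCAP and TIP60 remodellers. In heart, 10 of 129 tested rose and 15 fell under CR (7.75% and 11.6%, against 10.2% and 10.2% of all probe sets), and 3 rose and 16 fell under resveratrol (2.33% and 12.4%, against 7.51% and 7.64%). Gatad2a, a NuRD subunit, fell by 0.65 and 0.64, and Trrap, the scaffold of TIP60, by 0.73 and 0.71. Atrx (1420948_s_at), a remodeller of repeats, rose by 1.25 and 1.16. In muscle, 13 of 120 rose and 21 fell under CR (10.8% and 17.5%, against 19.4% and 13.4% of all probe sets), and 6 rose and 12 fell under resveratrol (5% and 10%, against 10.7% and 9.73%). The same Atrx probe set fell there, by 1.28 and 1.56, and Hells, a remodeller of the DNA methylation machinery, rose by 1.38 and 1.04. The BAF subunit Ss18 was split under CR, with a fall of 1.92 on 1 probe set and a rise of 1.46 on another. The old control mean of the rising probe set, 48.1, lay under the cutoff of 69.3 for testing. The lowest CR array of the falling one was at 20.2, so both sizes are uncertain.

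In neocortex, 18 of 131 partner probe sets rose and 27 fell under CR (13.7% and 20.6%, against 11.7% and 14.6% of all probe sets), and 14 rose and 21 fell under resveratrol (10.7% and 16%, against 11% and 13.1%). Mta1, a NuRD subunit, fell by 0.77 and 0.75, beside the falls of Chd3 and Chd5. Srcap, the ATPase that exchanges H2A.Z, fell by 1.83 under CR, and Vps72, its partner subunit, by 0.64 under CR and 0.82 under resveratrol. Bcl7a, an accessory BAF subunit, fell by 0.45 and 0.85 under these diets (1428208_at), and Pbrm1, the bromodomain subunit of PBAF, rose by 0.71 and 0.47.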

How the data were processed

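Total RNA of heart, gastrocnemius and neocortex was hybridised to 1 array per mouse and tissue, 5 arrays in each of 12 groups. The deposited values are linear signal intensity per probe set, which the authors computed in GCOS 1.2 and scaled to a trimmed mean of 500. No detection calls were used, and the number of arrays limits the precision. All arrays of a tissue were then brought to 1 trimmed mean (2% from each end), floored at 1 and put on the log2 scale. Probe sets at or above the 40th percentile of mean log2 signal of a tissue were tested (limma 3.58.1 in R 4.3.3, lmFit and eBayes with trend, 4 groups of a tissue in 1 fit), with Benjamini-Hochberg adjustment over all 27022 and a threshold of 0.05. Tissues and differences between tissues were fitted over all 60 arrays. Figures were drawn in Python 3.11.15 with matplotlib 3.10.9. Of the probe sets, 34945 have 1 gene symbol in the platform annotation, 932 have several and 9160 have none, and 1 with several that names Ino80 was left out. Probe sets ending in _s_at or _x_at may match several transcripts. The members and lists were chosen with earlier results of these data known. Named were members that the study names, the largest changes per comparison, genes whose probe sets differ in sign or agree, alternative subunits, and leading partners. Alternatives were other scalings, filters, offsets, tests and sets of arrays. The fits were tested on simulated data.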

Additional observations from a re-analysis of the deposited data

Results flagged for a closer look

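In 5 of 72 groups of 5 arrays examined for the probe sets shown by array, the highest or lowest array stood apart from the rest (gap over range above 0.71), and chance alone flags about 1 group in 20. Smarcc2 was high at 1150 on CR replicate 4 in neocortex and at 919 on CR replicate 1 in heart. Chd4 was high at 992 on resveratrol replicate 1 in heart. Chd2 (1428691_at) was high at 1181 on resveratrol replicate 5 in muscle and low at 1269.5 on old control replicate 1 in muscle.

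In 7 cases the effect of a diet passed the test in opposite directions in a pair of tissues, and the difference between them passed as well. The share of all probe sets that meet this rule was not counted, so the 7 cases are not read as a trait of these genes. For CR, muscle minus heart was -1.99 for Chd2 (1428691_at) and -1.24 for Ino80c. Smarca2 (1430526_a_at) had a CR effect that was higher in neocortex than in heart by 0.84 and than in muscle by 1.22. For resveratrol, muscle minus heart was -1.34 for Chd2, and neocortex minus muscle was 1.28 for Smarca2 and 0.97 for Smarca5 (1424206_at). All of these are log2 differences from limma over the 60 arrays. The neocortex rises of Smarca2 under CR and of Smarca5 under resveratrol did not pass with the striatal markers as a covariate. In 6 of the 7 cases 1 of the tissues is muscle, where diet and labelling cannot be told apart. The remaining case sets neocortex against heart, and in both the beta-actin ratio did not overlap between CR and old control arrays. The part of that ratio was not tested.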

How the results depend on the processing

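Of 121 calls of members, 58 held in every alternative and with every array left out, 57 were lost in at least 1 alternative, 55 with at least 1 array left out, and none changed direction. Counts of called members moved by over 1.5 times as follows. With age in heart, 9 became 3 by the methods' t-test and 4 with only the 2 groups compared. Between resveratrol and CR in heart, 0 became 4 by the methods' t-test with their cutoff of 0.01 on the unadjusted p, 1 without the eBayes trend, 1 with only the 2 groups and 1 without the 2 outlying arrays. With age in muscle, 0 became 2 by that t-test, unadjusted, and 1 without the 2 outlying arrays. In muscle these were young control replicate 4 and old control replicate 1, so CR replicate 2 stayed in. In heart they were young control replicate 1 and old control replicate 4. For resveratrol in muscle, 17 became 27 with only the 2 groups. By the t-test, unadjusted, 0 became 1 between the diets in muscle and 1 with age in neocortex, and by the adjusted t-test 8 became 3 between the diets in neocortex. Between tissues, adjusted p alone gave 56 for neocortex against heart, 68 for neocortex against muscle and 47 for muscle against heart, in place of 18, 35 and 18. The cause was not tested, except that the last drops the minimum difference and the 2-group fits hold fewer arrays.

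With single arrays left out, the counts ranged from 3 to 8 for age, 10 to 13 for CR and 9 to 11 for resveratrol in heart, from 0 to 1 for age, 21 to 30 for CR and 10 to 17 for resveratrol in muscle, and from 12 to 18 for CR, 14 to 20 for resveratrol and 3 to 9 between the diets in neocortex. They were 0 to 0 between the diets in heart and in muscle and with age in neocortex. Within a tissue, same-numbered arrays of different groups deviated together by a mean correlation of 0.0061 (heart), 0.0052 (muscle) and 0.003 (neocortex). Single pairs ranged from -0.226 to 0.119 in muscle. These values cannot show whether same-numbered arrays of different tissues came from the same mouse, which was not tested. With the replicate block, 10, 13 and 11 members were called in heart for age, CR and resveratrol, 28 and 17 in muscle for CR and resveratrol, and 16, 18 and 7 in neocortex for CR, resveratrol and the diets compared. Signals near the cutoff limit the size of a change, as for Smarca5 1440048_at.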
